A study of Mus musculus with 4 samples.

Results

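Type I interferon-stimulated genes (ISGs) were followed through the immune cells of mouse mammary tumours treated with a plasmid for interleukin 12 (IL-12) or with a control plasmid. The genes were a given list of 31 ISGs. Of these, 30 had a column in both expression tables, out of 11407 genes per table, and Ddx58 is not analysed here. The list was written without using measured values of these libraries, although earlier results of the same data were known. Both plasmids were injected into the tumour and followed by electroporation, and live CD45+ cells, that is leukocytes, were sorted. Cells of 3 mice were pooled for each treatment, and each pool gave 1 library of transcript 5′ ends, read on droplet-captured single cells. Unique molecular identifiers (UMIs), each standing for a captured transcript, numbered 59956933 over 12979 cells in the IL-12 library, where the median cell had 3418, and 17306854 over 4232 cells in the control library, where it had 3021. The tumour model is given in 3 ways: triple-negative breast tumours in the series text, the mammary carcinoma line 4T1 in the tables, and in the growth protocol HER2 induction in mammary tissue of one-month-old mice. The treatment column of the control table reads Isotype, while the labels of that library give control plasmid.

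Type I interferons (interferon-beta and the interferon-alphas) bind the receptor formed by Ifnar1 and Ifnar2, whose kinases Jak1 and Tyk2 phosphorylate Stat2. With Irf9 it forms part of a complex that binds a DNA element, the interferon-stimulated response element, in the promoters of ISGs. Most ISG products block viral replication, sense nucleic acids, or set the strength of the response itself. Many of the same genes are also induced by interferon-gamma, the cytokine that IL-12 draws from T cells and NK cells, so the RNA levels do not say which interferon acted.

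Levels are the UMIs of a gene summed over the cells of a class or cluster per 1000000 UMIs of those cells (CPM). Classes and clusters are those deposited by the authors. Each treatment has 1 library, so differences between treatments lack replicates and were not tested. The 95% intervals are exact Poisson (or, for shares, exact binomial) intervals and cover counting error only, since cells of a pool are not replicates. A gene was measured in a class where the libraries together had 50 or more of its UMIs and where 5% or more of cells had one in either library, and was called higher or lower from a 1.5-fold difference on the log2(CPM + 1) scale. The authors' class names were set beside marker genes. The 8 neutrophil markers summed to 104100 CPM in IL-12 and 132800 CPM in control neutrophils. The 8 macrophage markers summed to 7433 CPM in IL-12 and 11210 CPM in control macrophages. Macrophages also held the neutrophil markers, summing to 8629 CPM with IL-12 and 9246 CPM with control. These stood at a median of 9.96% of their neutrophil level with IL-12 and 7.37% with control. The part of neutrophil RNA in the macrophage ISG levels was not tested. Cluster 13, which the authors call B cells, had B cell markers at 1428 CPM with IL-12 and 1383 CPM with control. Dendritic cell markers there summed to 1568 CPM with IL-12 and 1207 CPM with control, and plasmacytoid dendritic cell markers to 700 CPM and 373 CPM. The cluster also held mast cell markers, at 3631 CPM in the IL-12 library and 3.49 CPM in the control library, and is called by its number. Between the libraries 87 cell barcodes were shared, and leaving those cells out changed the summed ISG level of no class by more than its counting interval except in cluster 13, as given there.

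The ISG promoters give the sequence side of the pathway. RefSeq promoters (GRCm38.p6, from 250 bases before to 50 after the start site) were held for 21 of the 30 genes. Some of these genes had more than 1 promoter. The core of the response element was searched on both strands as GAAA, any 2 bases and GAAA, with overlapping matches counted. At least 1 promoter held it in 11 of these 21 genes (52.4%). The share was 3.99% of the 27025 genes with a promoter in the same table. Those 11 genes were Isg15, Ifit1, Ifit3, Ifit1bl2, Oas1a, Oas3, Rsad2, Ifih1, Ifitm3, Bst2 and Trim30a. The 150 bases before the start site, 5′ to 3′ on the gene's own strand with the motif in capitals, are shown for Isg15 (the ISG with the most UMIs), for the neighbours Ifit1 and Ifit1bl2, for Rsad2, and for Oas3, which was called higher in none of the classes where it was measured.
Isg15, chr4:156200819-156200968, minus strand: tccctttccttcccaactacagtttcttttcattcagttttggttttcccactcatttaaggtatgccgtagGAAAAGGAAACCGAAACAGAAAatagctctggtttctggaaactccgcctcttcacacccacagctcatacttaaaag
Ifit1, chr19:34640739-34640888, plus strand: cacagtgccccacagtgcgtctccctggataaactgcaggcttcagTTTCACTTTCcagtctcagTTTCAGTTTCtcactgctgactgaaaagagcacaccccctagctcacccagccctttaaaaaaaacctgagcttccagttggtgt
Ifit1bl2, chr19:34640744-34640893, minus strand: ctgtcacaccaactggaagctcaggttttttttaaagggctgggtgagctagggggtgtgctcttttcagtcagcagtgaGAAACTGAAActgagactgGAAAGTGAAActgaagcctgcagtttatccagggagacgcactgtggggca
Rsad2, chr12:26456453-26456602, minus strand: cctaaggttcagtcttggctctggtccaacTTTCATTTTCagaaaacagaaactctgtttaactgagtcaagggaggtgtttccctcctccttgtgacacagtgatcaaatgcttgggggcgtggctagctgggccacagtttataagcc
Oas3, chr5:120777660-120777809, minus strand: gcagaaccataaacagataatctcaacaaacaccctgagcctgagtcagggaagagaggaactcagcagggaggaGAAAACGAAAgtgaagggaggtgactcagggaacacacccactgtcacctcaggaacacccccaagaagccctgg
In Isg15 the capitals hold 3 overlapping matches that begin 78, 72 and 66 bases before the start site. Ifit1 and Ifit1bl2 face away from each other, and the pair of matches in both sequences is the same stretch of DNA read from either strand. Among genes measured in neutrophils, the 11 with a match had a median log2 ratio of IL-12 over control of 1.05, from -0.46 to 2.78, and the 8 with a promoter but no match had 1.07, from 0.16 to 2.03. In macrophages these medians were 0.76 over 10 genes and 0.70 over 10 genes.

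Neutrophils carried the highest ISG levels of the classes in both libraries, and the ISGs were higher after IL-12 in neutrophils, macrophages and both T cell classes. The 30 genes summed to 14441 CPM in IL-12 neutrophils and 6225 CPM in control neutrophils, a ratio of 2.32 (95% interval 2.30 to 2.34). In macrophages they summed to 8788 CPM with IL-12 and 4534 CPM with control, a ratio of 1.94 (1.91 to 1.97). The monocyte markers Ly6c2 and Ccr2 moved with this, summing to 717 CPM in IL-12 and 185 CPM in control macrophages, and their part in the ISG level was not tested. The CD8 T cell class had 4272 CPM with IL-12 and 1946 CPM with control, a ratio of 2.20 (2.15 to 2.25), and the CD4 T cell class had 3065 CPM with IL-12 and 1749 CPM with control, a ratio of 1.75 (1.63 to 1.88). The classes thus differed more in level than in ratio: the summed level of IL-12 T cells was below that of control neutrophils. Of the 30 genes, 20 in the IL-12 library and 21 in the control library were highest in neutrophils among neutrophils, macrophages, CD8 T cells, CD4 T cells and cluster 13. Macrophages held the highest level of Ifitm3, Ifi27l2a, Ifi44, Dhx58, Phf11d and Ifi204 in both libraries, and cluster 13 that of Bst2. Neutrophils held 54.0% of the ISG UMIs of the IL-12 library (exact interval 53.9 to 54.1) with 31.3% of all its UMIs, and 67.1% of the ISG UMIs of the control library (66.8 to 67.4) with 49.6% of all UMIs.

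Most measured ISGs were higher with IL-12 in each class, against a background in which more genes were lower than higher. In neutrophils 25 of the 30 were measured, 3 of them only through the IL-12 library, and 19 were higher and 1 lower, where 10.9% of all 3351 measured genes were called higher and 39.5% lower. Macrophages had 29 measured, 6 only through the IL-12 library, with 19 higher and none lower, beside 10.3% higher and 19.5% lower among all measured genes. In the CD8 T cell class 27 were measured, 7 only through the IL-12 library, with 18 higher and none lower, beside 11.6% higher and 36.5% lower. The CD4 T cell class, with 179 control cells, had 16 measured, 4 only through the IL-12 library, with 11 higher and none lower, beside 15.6% higher and 16.0% lower. Those measured only through the IL-12 library were Ifit2, Ifit3 and Ifit1bl2 in neutrophils, and Ifit1, Ifit2, Ifit3, Mx1, Cmpk2 and Phf11d in macrophages. In CD8 T cells they were Ifit2, Ifit3, Ifit1bl2, Mx1, Oasl1, Oasl2 and Cmpk2, and in CD4 T cells Ifit1, Oas1a, Rsad2 and Ifih1. The median log2 ratio of the measured ISGs and of all measured genes was 1.23 and -0.39 in neutrophils, 0.72 and -0.12 in macrophages, 1.19 and -0.31 in CD8 T cells, and 0.85 and -0.02 in CD4 T cells. Without the filter on low counts, 21 of the 30 were higher and 1 lower in neutrophils, 20 and 0 in macrophages, 19 and 0 in CD8 T cells, and 19 and 1 in CD4 T cells.

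**Figure D1:**
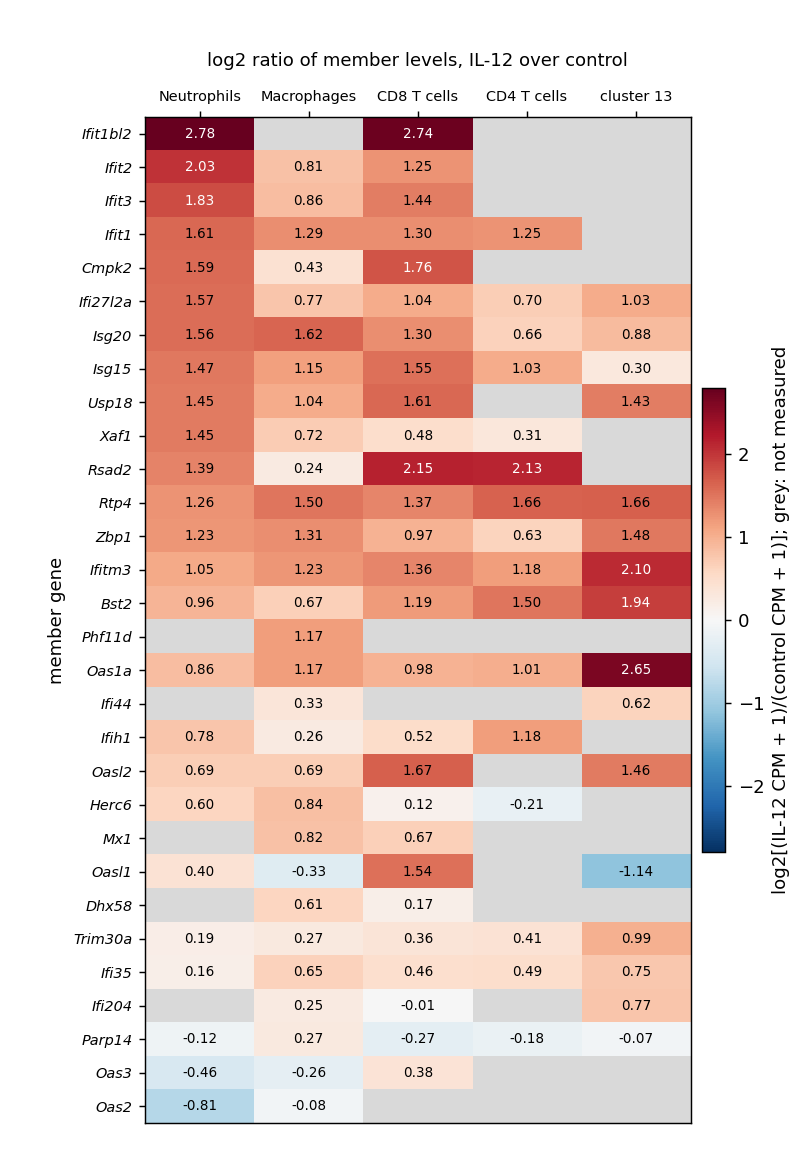
Each row is an ISG and each column a class, coloured and numbered by the log2 ratio of IL-12 over control on the CPM + 1 scale, with grey for genes not measured there. Rows run from the largest ratio in neutrophils (Ifit1bl2, 2.78) to the smallest (Oas2, -0.81). Isg15, Rtp4 and Ifitm3 are above 0 in all columns, while Rsad2 is above 2 in both T cell columns and 0.24 in macrophages. The CD8 value of Rsad2 was 0.67 without clusters 11 and 12, and its CD4 value rests on 2 control UMIs.

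The IFIT genes, whose products bind viral RNA and block its translation, had the largest neutrophil ratios. Of these, Ifit1bl2, Ifit2 and Ifit3 were measured only through the IL-12 library. In control neutrophils they had a UMI in 74, 98 and 82 of 2721 cells. Ifit1bl2 was at 90.1 CPM in IL-12 neutrophils and 12.2 CPM in control neutrophils (7.37-fold, 6.05 to 9.06). Ifit2 was at 102 CPM with IL-12 and 24.1 CPM with control (4.22-fold, 3.66 to 4.90), and Ifit3 at 54.5 CPM with IL-12 and 14.6 CPM with control (3.74-fold, 3.11 to 4.54). These 4 genes lie together on chromosome 19, and Ifit1 at chr19:34640871-34650009 was at 286 CPM with IL-12 and 92.9 CPM with control (3.08-fold, 2.86 to 3.32). In macrophages Ifit1 was at 61.4 CPM with IL-12 and 24.4 CPM with control (2.51-fold, 2.01 to 3.17), Ifit3 was 1.91-fold and Ifit2 1.80-fold higher, and Ifit1bl2 was too rare in cells to count as measured, with 111 UMIs with IL-12 and 3 with control (11.2-fold, 3.75 to 55.4). In CD8 T cells the log2 ratio was 1.30 for Ifit1 and 1.44 for Ifit3. Without clusters 11 and 12 these were 0.86 and 1.13. In GENCODE transcripts 47.0% of the 60-base stretches of Ifit3 also occur in Ifit3b, and 6.31% of those of Ifit1 in Ifit1bl2, so reads of these pairs may have been split or lost in counting.

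Isg15, a ubiquitin-like protein that is linked to other proteins during the response, held the most UMIs of the list. It was at 5386 CPM in IL-12 neutrophils and 1940 CPM in control neutrophils (2.78-fold, 2.73 to 2.82). In macrophages it was at 1364 CPM with IL-12 and 613 CPM with control (2.23-fold), in CD8 T cells at 814 CPM with IL-12 and 278 CPM with control (2.93-fold), and in CD4 T cells at 347 CPM with IL-12 and 169 CPM with control (2.05-fold). The 2 other genes of this modification on the list are Usp18, which removes Isg15 from proteins and restrains the receptor Ifnar2, and Herc6, the main ligase that attaches Isg15 in mice. Usp18 was at 110 CPM in IL-12 and 39.6 CPM in control neutrophils (2.77-fold), at 31.0 CPM in IL-12 and 14.6 CPM in control macrophages (2.13-fold), and at 44.4 CPM in IL-12 and 13.9 CPM in control CD8 T cells (3.20-fold). Herc6 was called higher in neutrophils (1.53-fold) and macrophages (1.83-fold), and its CD8 levels were 46.8 CPM with IL-12 and 43.1 CPM with control.

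Rsad2 (viperin), which makes a chain-terminating nucleotide, and its neighbour Cmpk2, a mitochondrial nucleotide kinase, had larger ratios of summed UMIs in neutrophils than in macrophages. Rsad2 was at 1051 CPM in IL-12 neutrophils and 400 CPM in control neutrophils (2.63-fold, 2.53 to 2.72), whereas in macrophages it was at 238 CPM with IL-12 and 201 CPM with control (1.18-fold, 1.09 to 1.29). Cmpk2 was 3.08-fold higher in neutrophils (2.68 to 3.56), and in macrophages it was at 18.5 CPM with IL-12 and 13.5 CPM with control (1.38-fold, 1.01 to 1.92). The macrophage sums rested on few cells. The 1% of macrophages with the most UMIs of a gene held 33.4% of the Rsad2 UMIs with IL-12 (17 cells) and 61.1% with control (6 cells), and 60.8% of the Cmpk2 UMIs with IL-12 and 79.6% with control. In neutrophils the same share of cells held 18.7% of the Rsad2 UMIs with IL-12 and 27.3% with control. The share of cells with an Rsad2 UMI, each cell thinned to 1000 UMIs, was 10.2% of IL-12 and 5.51% of control macrophages, and 34.2% of IL-12 and 16.3% of control neutrophils, beside 2.58% of IL-12 and 0.562% of control CD4 T cells. At full depth they were 28.1% of IL-12 and 12.7% of control macrophages, and 49.4% of IL-12 and 23.9% of control neutrophils. Both lie on chromosome 12, Rsad2 at chr12:26442746-26456452 and Cmpk2 at chr12:26469204-26479837, pointing away from each other.

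The oligoadenylate synthetases, which activate RNase L when they meet double-stranded RNA, did not move together. Oas1a was higher in all 4 classes, at 81.6 CPM in IL-12 and 44.4 CPM in control neutrophils (1.84-fold), at 100 CPM in IL-12 and 44.2 CPM in control macrophages (2.27-fold), 2.03-fold in CD8 T cells, and 2.08-fold in CD4 T cells, where the interval (0.963 to 5.35) held 1. In GENCODE, 52.9% of its 60-base stretches are shared, mostly with Oas1g. Oas2 was the 1 gene called lower in neutrophils, at 43.6 CPM with IL-12 and 77.1 CPM with control (a ratio of 0.565, 0.509 to 0.627). Its log2 ratio was -0.81, and -0.42 relative to the median of all measured genes of the class, which ends the call, and 39.5% of all measured neutrophil genes were called lower. Oas3 was at 108 CPM in IL-12 and 149 CPM in control neutrophils (a ratio of 0.726) and at 34.1 CPM in IL-12 and 40.9 CPM in control macrophages. Of the related genes, Oasl2 was higher in neutrophils (1.62-fold), macrophages (1.63-fold) and CD8 T cells (3.43-fold). In CD8 T cells it was measured only through the IL-12 library. Its log2 ratio there was 1.13 without clusters 11 and 12, in place of 1.67. Oasl1, which represses translation of Irf7 in mice, was at 134 CPM in IL-12 and 101 CPM in control neutrophils, and at 120 CPM in IL-12 and 151 CPM in control macrophages (a ratio of 0.793, 0.719 to 0.877).

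Among genes whose products act at membranes, Ifitm3, which blocks virus entry at endosomes, was at 3668 CPM in IL-12 and 1566 CPM in control macrophages (2.34-fold, 2.28 to 2.41) and at 2842 CPM in IL-12 and 1368 CPM in control neutrophils (2.08-fold, 2.04 to 2.12). It was 2.57-fold higher in CD8 and 2.27-fold higher in CD4 T cells. Bst2 (tetherin), which holds budding virus at the cell surface, was at 418 CPM in IL-12 and 263 CPM in control macrophages (1.59-fold), at 161 CPM in IL-12 and 82.3 CPM in control neutrophils (1.96-fold), and at 246 CPM in IL-12 and 86.5 CPM in control CD4 T cells (2.84-fold). Ifi27l2a was the ISG with the most UMIs in T cells. It was at 1172 CPM in IL-12 and 568 CPM in control CD8 T cells (2.06-fold) and at 1272 CPM in IL-12 and 783 CPM in control CD4 T cells (1.63-fold).

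The sensors of nucleic acids differed among themselves. Zbp1, which binds Z-form nucleic acids and can start necroptosis, was higher in all 4 classes, at 220 CPM in IL-12 and 87.9 CPM in control macrophages (2.50-fold), at 362 CPM in IL-12 and 154 CPM in control neutrophils (2.35-fold), 1.97-fold in CD8 T cells and 1.55-fold in CD4 T cells. Ifih1 (MDA5), a sensor of long double-stranded RNA, was called higher in neutrophils (1.72-fold) and CD4 T cells (2.36-fold), and its ratio was 1.20 in macrophages and 1.45 in CD8 T cells. Dhx58 (LGP2), its regulator, was measured in macrophages, at 27.4 CPM with IL-12 and 17.6 CPM with control (1.56-fold), and in CD8 T cells, at 13.2 CPM with IL-12 and 11.6 CPM with control. Ifi204, a DNA-binding protein of the p200 family, was at 126 CPM in IL-12 and 106 CPM in control macrophages (a ratio of 1.19). Mx1, a dynamin-like GTPase that acts on viral nucleocapsids, was rare: neutrophils had 14 UMIs of it with IL-12 and 2 with control, and macrophages had 9.51 CPM with IL-12 and 4.94 CPM with control (1.92-fold, 1.17 to 3.36). CD8 T cells had 246 UMIs of Mx1 with IL-12 and 25 with control, and it was called higher there (log2 ratio 0.67). Among the classes and cluster 13, its level was highest in CD4 T cells with IL-12 and in CD8 T cells with control.

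Among other effector genes, Isg20, Rtp4 and Xaf1 were called higher in neutrophils. Isg20, an RNA exonuclease, was at 841 CPM in IL-12 and 284 CPM in control neutrophils (2.96-fold) and had the largest ratio of the measured ISGs in macrophages, at 126 CPM with IL-12 and 40.1 CPM with control (3.13-fold, 2.64 to 3.74). Rtp4 was higher in all 4 classes, 2.40-fold in neutrophils, 2.85-fold in macrophages, 2.61-fold in CD8 T cells and 3.25-fold in CD4 T cells. Xaf1, a pro-apoptotic protein, was 2.75-fold higher in neutrophils and 1.66-fold higher in macrophages. Trim30a, Ifi35 and Parp14 differed by less than 1.5-fold in neutrophils, and Parp14, an ADP-ribosyltransferase, had ratios of 0.918 in neutrophils, 1.21 in macrophages, 0.825 in CD8 T cells and 0.883 in CD4 T cells. Phf11d and Ifi44 were measured in macrophages, where Phf11d was 2.37-fold higher and Ifi44 had a ratio of 1.26.

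The ISG level of neutrophils depended on the cluster. In the IL-12 library cluster 3, with 2606 cells, had the highest summed level of the clusters with at least 50 cells, 16565 CPM, and cluster 7 had 14960 CPM and cluster 2 12698 CPM. In the control library, the neutrophils sat mostly in cluster 1 (1263 cells, 6792 CPM), cluster 4 (552 cells, 5437 CPM) and cluster 2 (427 cells, 6983 CPM). Cluster 3 had 27 control cells and cluster 4 had 26 IL-12 cells, so neither could be compared between the libraries. With 1 library per treatment, such a cluster and its library cannot be told apart.

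**Figure D2:**
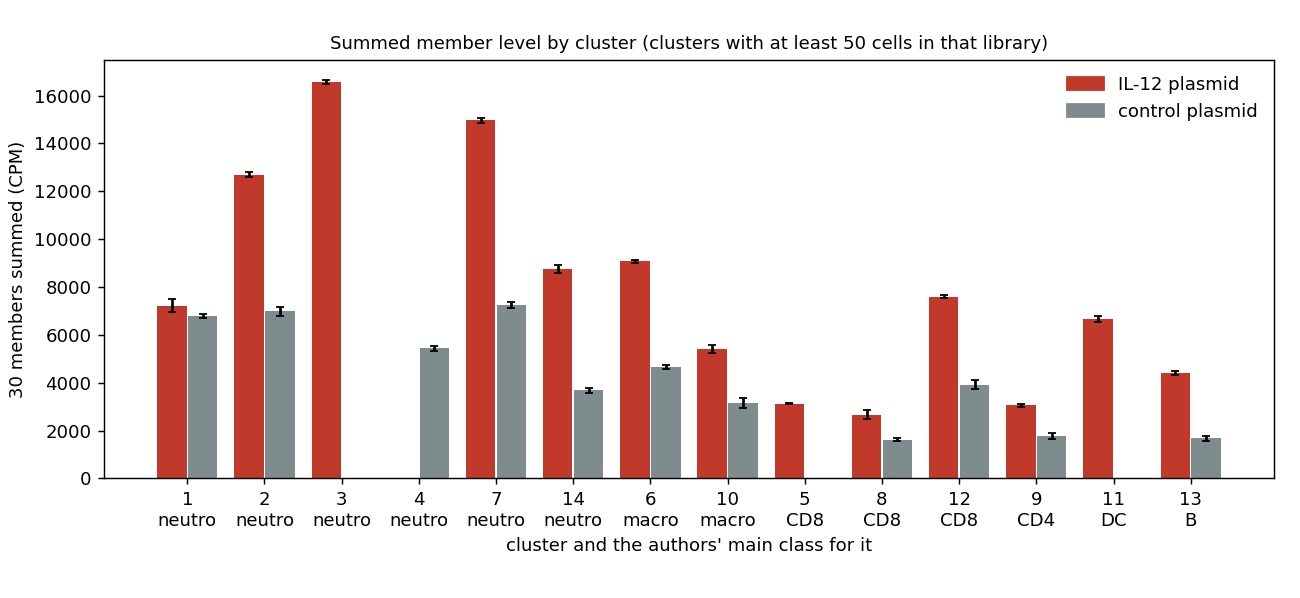
Bars give the summed CPM of the 30 ISGs in each cluster, IL-12 plasmid left and control plasmid right, with exact Poisson 95% intervals and clusters ordered by the authors' main class. Cluster 3 stands at 16565 CPM in the IL-12 library, cluster 1 has nearly equal bars, at 7222 CPM with IL-12 and 6792 CPM with control, and the T cell clusters 5, 8 and 9 lie lowest in the IL-12 library. In the control library cluster 8 is lowest and cluster 13 next.

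Clusters 2, 7 and 14 had higher ISG levels with IL-12, and cluster 1 hardly differed. Cluster 2 had 12698 CPM with IL-12 and 6983 CPM with control (1.82-fold, 1.77 to 1.87), with 15 of 25 measured ISGs higher and 1 lower, beside 8.53% higher and 38.8% lower among all measured genes. Cluster 7 had 14960 CPM with IL-12 and 7244 CPM with control (2.07-fold, 2.03 to 2.11), with 19 of 28 higher and 1 lower, beside 8.96% and 34.1%. Cluster 14 had the highest neutrophil markers and the lowest ISG level of the neutrophil clusters in the control library, with 8769 CPM in IL-12 and 3688 CPM in control cells (2.38-fold, 2.30 to 2.46), and 14 of 20 higher and 1 lower, beside 13.9% and 30.8%. In cluster 1, with 165 IL-12 cells, the sum was 7222 CPM with IL-12 and 6792 CPM with control (1.06-fold, 1.02 to 1.11), and 2 of 21 measured ISGs were higher and 3 lower, beside 15.1% and 21.2%. Those higher were Ifi27l2a (2.35-fold) and Ifit1 (1.61-fold), and those lower were Oas2, Oas3 and Parp14. Isg15 was at 2206 CPM in IL-12 and 2415 CPM in control cells of cluster 1, and without the 3 ISGs with the most UMIs the summed log2 ratio of that cluster was -0.09 in place of 0.09. Oas2 was called lower in all 4 of these clusters, with ratios of 0.263 in cluster 1, 0.447 in cluster 2, 0.659 in cluster 7 and 0.489 in cluster 14.

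The ISGs did not rank the clusters alike. In both cluster 2 contrasts below, the share of ISGs called was no larger than that of all measured genes. Within the IL-12 library, cluster 2 exceeded cluster 3 in Usp18, at 182 CPM against 66.4 CPM (2.74-fold, 2.43 to 3.09), in Ifit1bl2 (1.99-fold), in Rsad2, at 1450 CPM against 865 CPM (1.68-fold), and in Oasl1 (1.57-fold). Cluster 2 was below cluster 3 in Isg15, at 4150 CPM against 7147 CPM (a ratio of 0.581), Oas3 (0.550), Ifih1 (0.625) and Rtp4 (0.652). So 4 of 25 measured ISGs were higher and 4 lower in cluster 2, beside 25.4% higher and 16.0% lower among all measured genes, and the difference in the sum came mainly from Isg15. Within the control library, cluster 2 likewise exceeded cluster 1 in Usp18, at 89.6 CPM against 27.4 CPM (3.27-fold, 2.34 to 4.55), in Rsad2, at 800 CPM against 407 CPM (1.97-fold), and in Oasl1 (2.18-fold). Cluster 2 there was higher in 4 and lower in 1 of 22 measured ISGs, beside 25.5% higher and 16.6% lower. Control cluster 4 exceeded control cluster 1 in Herc6 (2.39-fold), Ifih1 (1.79-fold), Parp14 (1.63-fold) and Oasl1 (1.56-fold), and was below it in Ifi27l2a (a ratio of 0.359) and Bst2 (0.482), with 4 of 21 measured ISGs higher and 5 lower, beside 32.2% higher and 8.49% lower. As cluster membership was set by the same cells, these within-library contrasts are descriptions.

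**Figure D3:**
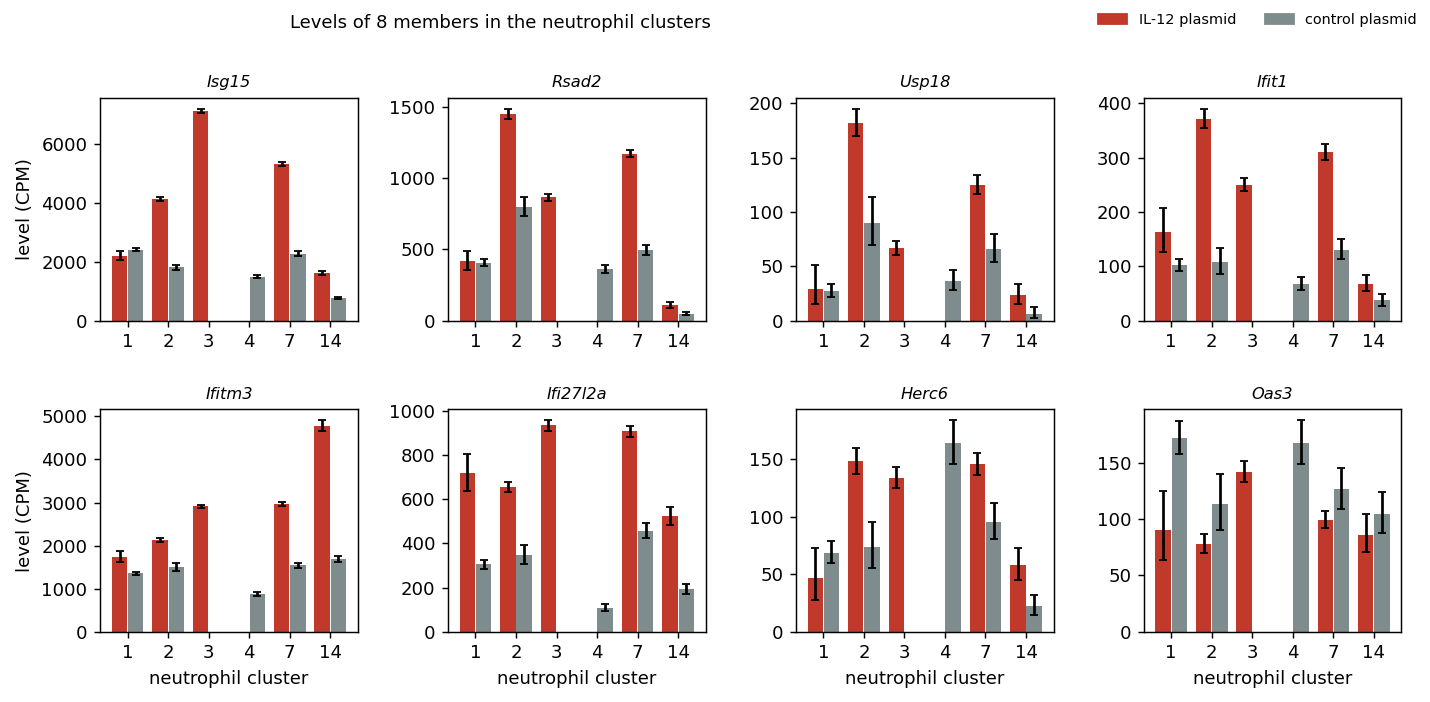
Each panel gives the CPM of an ISG in the 6 neutrophil clusters, IL-12 plasmid left and control plasmid right, with exact Poisson 95% intervals and no bar where a library had fewer than 50 cells of the cluster. Isg15 peaks in IL-12 cluster 3 (7147 CPM), Rsad2, Usp18 and Ifit1 in IL-12 cluster 2 (1450, 182 and 372 CPM), Ifitm3 in IL-12 cluster 14 (4788 CPM), and Herc6 and Oas3 in control clusters.

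Both macrophage clusters were higher with IL-12. Cluster 6 had 9080 CPM with IL-12 and 4653 CPM with control (1.95-fold, 1.92 to 1.99), and 18 of 30 ISGs were higher and none lower, beside 10.4% and 21.3% of all measured genes. Cluster 10, shallower and with 209 control cells, had 5416 CPM with IL-12 and 3149 CPM with control (1.72-fold, 1.60 to 1.85), and 6 of 14 were higher and none lower, beside 23.1% and 13.6%. Ifitm3 was at 3767 CPM in IL-12 and 1589 CPM in control cells of cluster 6, and at 2573 CPM in IL-12 and 1120 CPM in control cells of cluster 10. Isg20 was 3.28-fold higher in cluster 6 (2.75 to 3.94), at 15.9% of its neutrophil level with IL-12 and 14.4% with control. Both percents lay within the range of single neutrophil markers in cluster 6, and the part of neutrophil RNA was not tested. In cluster 10 Isg20 was at 34 CPM with IL-12 and 36 CPM with control. The level of the macrophages as a class therefore rests on cluster 6, which gave most of their UMIs.

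The T cell response was spread over clusters that differed between the libraries. The CD8 T cell class was mostly cluster 5 in the IL-12 library (2488 cells, 3124 CPM) and mostly cluster 8 in the control library (572 cells, 1625 CPM), a ratio of 1.92 (1.87 to 1.98). Between these, 13 of 23 measured ISGs were higher in IL-12 cluster 5 and none lower, beside 12.5% higher and 38.3% lower among all measured genes. Usp18 was at 36.0 CPM in IL-12 cluster 5 and 12.01 CPM in control cluster 8 (3.00-fold, 2.18 to 4.24), Bst2 at 260 CPM and 104 CPM (2.49-fold), Ifi27l2a at 1206 CPM and 535 CPM (2.25-fold) and Isg15 at 322 CPM and 165 CPM (1.95-fold). Rsad2 was at 14.7 CPM in IL-12 cluster 5 and 9.01 CPM in control cluster 8 (1.63-fold, 1.12 to 2.48). Cluster 8 itself, with 67 IL-12 cells, had 2663 CPM with IL-12 and 1625 CPM with control (1.64-fold, 1.52 to 1.77), with 7 of 15 measured ISGs higher and 2 lower, beside 12.8% and 23.9%. Cluster 9, which the authors call CD4 T cells, had 3063 CPM with IL-12 and 1768 CPM with control (1.73-fold, 1.62 to 1.86), with 11 of 16 higher and none lower, beside 15.3% and 16.4%. In the CD4 class Rsad2 had 55 UMIs with IL-12 and 2 with control (5.20-fold, 1.37 to 44.0), and was measured only through the IL-12 library. Rsad2 stood there at 1.99% of its neutrophil level with IL-12 and 1.01% with control. The single neutrophil markers ranged from 0.648% to 2.82% with IL-12 and from 0.604% to 2.11% with control. The part of neutrophil RNA in this ratio was not tested. Ifit3 had 45 UMIs with IL-12 and 0 with control, too few to count as measured. Its ratio was 2.84 with the control class set to the limit of 3 counts.

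Cluster 12, also called CD8 T cells, carried neutrophil RNA together with its ISGs. Its summed ISG level was 7599 CPM with IL-12 (706 cells) and 3908 CPM with control (54 cells), a ratio of 1.94 (1.85 to 2.04), with 18 of 29 measured ISGs higher and 1, Oas2, lower, beside 16.9% and 28.3%. All 8 neutrophil markers were detected in it, summing to 40420 CPM with IL-12 and 52850 CPM with control, and stood at a median of 40.8% of their neutrophil level in the IL-12 library and 43.6% in the control library. Isg15 stood at 41.5% of its neutrophil level in IL-12 cluster 12 and 56.0% in control cluster 12, and Rsad2 at 40.5% in IL-12 cluster 12 and 43.1% in control cluster 12. Of the 5 other ISGs set beside the markers, Oasl2 and Rtp4 stood at 43.1% and 44.1% with IL-12 and at 47.7% and 62.7% with control. Ifit1 stood at 49.7% with IL-12 and 83.2% with control, Isg20 at 51.3% with IL-12 and 64.6% with control, and Zbp1 at 61.6% with IL-12 and 109% with control. The single markers ranged from 35.2% to 47.2% with IL-12 and from 31.6% to 51.2% with control, so Rsad2 and Oasl2 lay within the range of the markers in both libraries, Isg15 and Rtp4 in the IL-12 library alone, and Ifit1, Isg20 and Zbp1 above it in both. The 6 T cell markers summed to 3527 CPM with IL-12 and 2220 CPM with control in the same cluster, and the part of doublets, droplets that caught 2 cells, was not tested. Cluster 11, called dendritic cells and with 837 IL-12 and 19 control cells, had 6649 CPM in the IL-12 library, with neutrophil markers at 22.2%, Isg15 at 25.3% and Rsad2 at 29.6% of their neutrophil levels. In IL-12 cluster 5 the markers were at 0.50%, Isg15 at 5.98% and Rsad2 at 1.40%. In cluster 9 the markers were at 0.999% with IL-12 and 2.40% with control. How much neutrophil RNA added to the ISG levels of cluster 9 was not tested. Leaving out clusters 11 and 12 brought the log2 ratio of Rsad2 in the CD8 class to 0.67 in place of 2.15, that of Cmpk2 to 0.91 in place of 1.76 and that of Isg15 to 0.82 in place of 1.55. That of Usp18 was then 1.48 in place of 1.61 and that of Bst2 1.23 in place of 1.19, and 13 ISGs were higher in place of 18. With IL-12 clusters weighted to the cluster shares of the control library, 9 were higher and 2 lower. The part of neutrophil RNA in these class values was not tested.

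**Figure D4:**
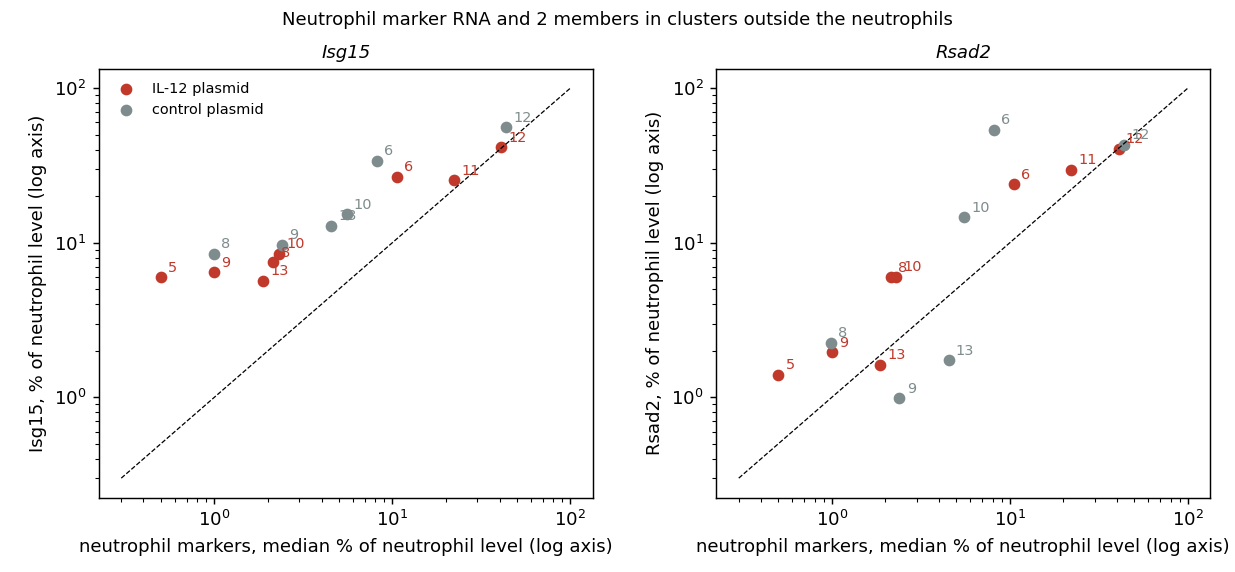
For each cluster outside the neutrophils, the level of Isg15 (left) or Rsad2 (right) as a percent of its level in the neutrophils of the same library is drawn against the median percent for 8 neutrophil markers, on log axes with the line of equality dashed. Cluster 12 lies on or near the line for Rsad2 at 40.5% with IL-12 and 43.1% with control. Control cluster 6 (macrophages) lies well above it, at 53.9% for Rsad2 and 8.16% for the markers. In control macrophages as a class, 6 cells held 61.1% of the Rsad2 UMIs. IL-12 cluster 6 is at 24.0% for Rsad2 and 10.6% for the markers, with single markers from 7.89% to 24.1%.

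Cluster 13 had the largest ratio of the clusters compared between the libraries, 4400 CPM with IL-12 and 1678 CPM with control (2.62-fold, 2.45 to 2.81), in 267 IL-12 and 95 control cells. The authors' B cell class, nearly the same cells, had a ratio of 2.75 (2.57 to 2.95). The cell makeup of cluster 13 differed between the libraries as the mast cell markers show. Without the 5 cells per library whose barcode was shared, its log2 ratio was 1.55 in place of 1.39. Of its 16 measured ISGs 13 were higher and 1 lower, beside 18.5% and 28.5% of all measured genes. Ifitm3 was at 1669 CPM with IL-12 and 389 CPM with control (4.29-fold, 3.74 to 4.94) and Bst2 at 1160 CPM with IL-12 and 302 CPM with control (3.84-fold, 3.29 to 4.51), while Isg15 was at 307 CPM with IL-12 and 250 CPM with control (1.23-fold). The difference in the sum came mainly from Ifitm3 and Bst2. Oasl1 was lower, at 82.9 CPM with IL-12 and 183 CPM with control (a ratio of 0.453, 0.350 to 0.586). In the IL-12 library 30 cells of this cluster had a UMI of Siglech, a plasmacytoid dendritic cell marker, and these had 4427 CPM of Bst2, against 749 CPM in the other cells. They also held the 10 Ifnb1 UMIs of the cluster, which came from 1 cell.

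Per cell at equal depth, the ISG transcripts were found in a larger share of cells with IL-12. Each cell was thinned to 1000 UMIs, leaving out 180 IL-12 and 110 control neutrophils, 150 IL-12 and 84 control macrophages, 30 IL-12 and 1 control CD4 T cells and no CD8 T cell that were shallower. Neutrophils then had a median of 11 ISG UMIs with IL-12 and 4 with control, macrophages 7 with IL-12 and 3 with control, CD8 T cells 3 with IL-12 and 1 with control, and CD4 T cells 2 with IL-12 and 1 with control. Cells without any ISG UMI made up 2.11% of IL-12 neutrophils (1.76 to 2.52) and 11.7% of control neutrophils (10.5 to 13.02), and 3.74% of IL-12 macrophages (2.85 to 4.81) and 15.3% of control macrophages (12.2 to 18.8). In T cells these shares were 15.3% of IL-12 and 33.3% of control CD8 cells, and 18.9% of IL-12 and 40.4% of control CD4 cells. The 10% of cells with the most ISG UMIs held 32.0% of them in IL-12 and 38.7% in control neutrophils, and 26.3% of them in IL-12 and 35.2% in control macrophages. In IL-12 cluster 3, 0.861% of cells had no ISG UMI.

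**Figure D5:**
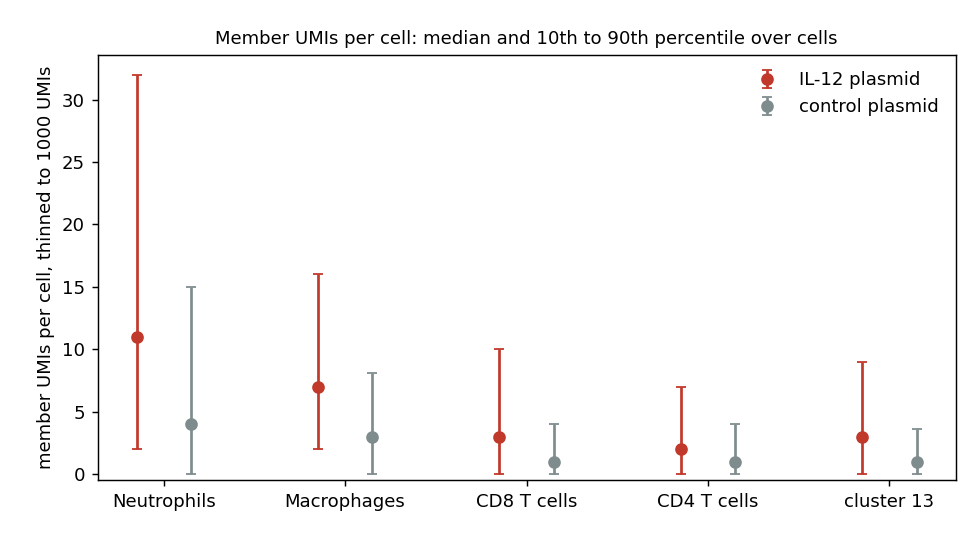
Points give the median number of ISG UMIs per cell after thinning to 1000 UMIs, and bars run from the 10th to the 90th percentile over cells, IL-12 plasmid left and control plasmid right. IL-12 neutrophils reach from 2 to 32 with a median of 11, and control neutrophils from 0 to 15 with a median of 4.

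The other genes of the pathway were mostly within 1.5-fold or not measured. Of 67 other genes of the pathway listed by role, 58 had a column. In neutrophils 12 were higher, 7 lower, 19 within 1.5-fold and 20 not measured, in macrophages 11, 0, 37 and 10, in CD8 T cells 12, 5, 30 and 11, and in CD4 T cells 6, 1, 29 and 22. The shares of all measured genes called higher and lower were 10.9% and 39.5% in neutrophils, 10.3% and 19.5% in macrophages, 11.6% and 36.5% in CD8 T cells, and 15.6% and 16.0% in CD4 T cells. Of the ligands, Ifnb1 had 26 UMIs in 7 of 12979 IL-12 cells and 3 UMIs in 1 of 4232 control cells. The receptor chain Ifnar1 was lower in neutrophils, at 41.6 CPM with IL-12 and 80.1 CPM with control (a ratio of 0.519, 0.468 to 0.576), and in CD8 T cells, at 71.5 CPM with IL-12 and 179 CPM with control (0.399, 0.365 to 0.436). Ifnar2, the chain that Usp18 binds, was within 1.5-fold in neutrophils (1.23), macrophages (1.42) and CD8 T cells (1.32).

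Among the factors, Irf7, which amplifies interferon production and is itself an ISG, was higher in all 4 classes. It was at 272 CPM in IL-12 and 156 CPM in control neutrophils (1.74-fold), at 300 CPM in IL-12 and 144 CPM in control macrophages (2.09-fold), 1.78-fold higher in CD8 and 2.09-fold higher in CD4 T cells. Stat2 was lower in CD8 T cells, at 33.2 CPM with IL-12 and 51.2 CPM with control (a ratio of 0.648, 0.555 to 0.760), and had ratios of 0.719 in neutrophils and 1.21 in macrophages. Irf9 had ratios of 0.836 in neutrophils, 1.25 in macrophages, 1.19 in CD8 T cells and 1.49 in CD4 T cells, all within 1.5-fold. Socs1, an inhibitor of the receptor kinases, was 1.65-fold higher in neutrophils and 1.99-fold higher in macrophages. It was the 1 listed inhibitor called higher in neutrophils, where 2 were lower and 1 was within 1.5-fold. Of the listed factors, 1 (Irf7) was higher in neutrophils, 2 were lower and 3 within 1.5-fold. Among all measured neutrophil genes 10.9% were higher and 39.5% lower. Of the other induced genes, Ifi47, a GTPase that interferon-gamma also induces, was at 271 CPM in IL-12 and 59.3 CPM in control macrophages (4.56-fold) and 2.61-fold higher in neutrophils, and Ifitm1 was at 2033 CPM in IL-12 and 669 CPM in control macrophages (3.04-fold). Sp110 and Ube2l6, the enzyme that passes Isg15 to its ligases, were above 2-fold in macrophages, at 2.17-fold and 2.04-fold.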

How the data were processed

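The genome mm10 and the tools STAR 2.6.1, Cell Ranger 2.1.0 and Partek stand in the submitters' processing notes, with no order or role given. The authors deposited, per library, log2 values of CPM + 1 for each cell with their clusters and classes. UMIs were recovered by undoing the logarithm and taking a cell's smallest value as 1 UMI, and were whole within 0.1 for all but 13 of 13883686 IL-12 and 6 of 4251108 control values. UMIs were summed by class or cluster and divided by total UMIs. Ratios carry a pseudocount of 1 CPM where given as log2, and folds are ratios of CPM without it. Intervals and thinning were tested on simulated data. The ISGs and pathway lists were chosen with earlier results of these data known. Values were given for ISGs with the largest and smallest ratios and, whatever their ratio, for Isg15, Ifit1, Ifit3, Mx1, Oas1a, Rsad2, Usp18, Ifitm3, Bst2 and Zbp1, though not in each class. A pathway gene that these rules name is not reported here. Gene positions are from the GENCODE annotation of GRCm38. Computation used Python 3.11.15, numpy 2.4.6, scipy 1.17.1 and pandas 2.3.3. No doublet caller was run here, and the sources used here do not give how the authors treated doublets. The T cell receptor libraries were not used.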

Additional observations from a re-analysis of the deposited data

Results flagged for a closer look

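Oasl1 was higher with IL-12 in the CD8 T cell class, with a log2 ratio of 1.54 (21.0 CPM in IL-12 and 6.55 CPM in control cells), and lower with IL-12 in cluster 13, with a log2 ratio of -1.14 (82.9 CPM in IL-12 and 183 CPM in control cells). The log2 ratios lie 2.68 apart, and each class has 1 library per treatment, so the difference was not tested. Oasl1 was measured in CD8 T cells only through the IL-12 library. Without clusters 11 and 12 the CD8 log2 ratio of Oasl1 was 0.35. Cluster 13 differed between the libraries in mast cell markers, and the part of this in its Oasl1 level was not tested.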

How the results depend on the processing

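No paired analysis was possible because each treatment has 1 expression library and the labels give no replicate numbers. The summed log2 ratio of IL-12 over control was above 0 under the alternatives run in all sorted cells, neutrophils, macrophages, CD8 T cells, CD4 T cells and cluster 13, where the reported values were 0.86, 1.21, 0.96, 1.14, 0.81 and 1.39. The values below are those outside the counting interval. With the mean of each cell's CPM it was 0.91 in all cells, 1.19 in neutrophils and 1.69 in cluster 13. Without the 3 ISGs with the most UMIs it was 0.66 in all cells, 1.03 in neutrophils, 0.62 in macrophages, 0.95 in CD8 T cells, 1.28 in cluster 13 and -0.085 in cluster 1, which reversed. Without genes with near copies it was 0.88 in all cells and 1.23 in neutrophils. Without clusters 11 and 12 it was 0.88 in all cells and 0.87 in CD8 T cells. With IL-12 clusters weighted to control shares it was 0.77 in all cells, 0.72 in neutrophils and 0.62 in CD8 T cells, and Ifit3 in CD8 T cells reversed to -0.24 in place of 1.44. Without the 1% of cells with the highest ISG CPM it was 0.89 in all cells, 1.24 in neutrophils, 1.003 in macrophages and 1.17 in CD8 T cells. Over the UMIs of the table's genes it was 0.91 in all cells, 1.20 in neutrophils and 0.90 in macrophages. Thinned to 1000 UMIs it was 0.94 in all cells, 1.02 in macrophages, 1.24 in CD8 T cells, 0.96 in CD4 T cells and 1.77 in cluster 13. Without shared barcodes, an alternative chosen after seeing the data, as was the one without Siglech cells, it was 1.55 in cluster 13.

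Counts moved by over 1.5 times as follows. At 2-fold, 9 in place of 16 were higher and 1 in place of 2 lower in all cells, 0 in place of 1 lower in neutrophils, 9 in place of 19 higher in macrophages and 8 in place of 13 higher in cluster 13. Weighted to control shares, 1 in place of 2 was lower in all cells, and 9 in place of 18 were higher and 2 in place of 0 lower in CD8 T cells. Relative to the median of all measured genes, 0 in place of 1 was lower in neutrophils. Without the filter, 19 in place of 11 were higher and 1 in place of 0 lower in CD4 T cells, and 25 in place of 13 were higher in cluster 13. The cause of these shifts was not tested. The control library limits the T cell values, with 179 CD4 cells.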
